A study of Schizosaccharomyces pombe with 8 samples.

Results

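The genes rpa2, rpa43 and rpc10 of the fission yeast Schizosaccharomyces pombe encode subunits of the nuclear RNA polymerases that make ribosomal and transfer RNA. They were chosen by symbol, and are 3 of the 527 genes in the table used here. RNA was sequenced from slr1- cells, which are a knockout of the gene for the La-related protein Slr1p, and from WT cells of strain yAS99. Each strain gave polysome RNA, the mRNA carried by several ribosomes, and total RNA. The 4 groups were slr1- polysome RNA, WT polysome RNA, slr1- total RNA and WT total RNA, with 2 libraries in each that the labels call biological replicates. All cultures grew in YES medium at 32°C with shaking at 200 rpm and received 100 µg/mL cycloheximide, which halts ribosomes on mRNA. How the knockout was made is not given, the slr1 gene was not analysed here, and the direction of each comparison between strains therefore rests on the labels. The labels do not say what separates the libraries of a group, and the p-values reflect no more than the scatter of these 8 libraries. The 3 genes had 138 to 677 counts per library.

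Slr1p is the fission yeast relative of LARP1, an RNA-binding protein that in mammals acts on the mRNAs of ribosomal proteins. RNA polymerase I transcribes the large ribosomal RNA precursor in the nucleolus, and RNA polymerase III makes transfer RNAs and the 5S ribosomal RNA. Together with RNA polymerase II, which transcribes the ribosomal protein genes, they supply the parts of the ribosome, and growing yeast spends much of its transcription on this. Rpa2 is the second largest subunit of RNA polymerase I and forms part of its catalytic core. Rpa43 belongs to the stalk of RNA polymerase I, which in budding yeast binds the initiation factor Rrn3. Rpc10, also called Rpb12, is a small zinc-binding subunit. Rpc10 is shared by RNA polymerases I, II and III, so this gene does not serve ribosomal and transfer RNA synthesis alone. The reference annotation names rpa2 and rpa43 as subunits of RNA polymerase I, whereas it calls the product of rpc10 a DNA-directed RNA polymerase subunit with no class.

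The 3 genes differ in structure, and all lie on chromosome II of the reference assembly ASM294v3. The gene rpa2 (SPBP23A10.07.1) is on the plus strand at chrII:2008086-2011955, has 1 exon and a transcript of 3870 nt, and encodes 1174 amino acids. The gene rpa43 (SPBC3B9.07c.1) is on the minus strand at chrII:4000467-4001243, with 3 exons, a transcript of 605 nt and a protein of 173 amino acids. The gene rpc10 (SPBC19C2.03.1) is on the plus strand at chrII:1675639-1676188, with 2 exons, a transcript of 497 nt and a protein of 63 amino acids. Non-coding RNAs are annotated on the opposite strand of each. SPNCRNA.1655 covers 82.5% of the exonic bases of rpa43, SPNCRNA.5293 covers 61.8% of those of rpc10, and SPNCRNA.5449 and SPNCRNA.5448 cover 19.3% and 5.66% of those of rpa2. The library kit marks strand, but whether counting used it is not given, so reads of these antisense RNAs cannot be told apart from those of the genes.

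The 250 bases before each annotated start are shown, since the mRNAs of all 3 genes were lower in slr1- total RNA. The motifs HomolD, HomolE, PAC and RRPE were searched on both strands. HomolD (CAGTCACA) and HomolE are boxes known from fission yeast ribosomal protein genes. The PAC core (GATGAG) and the RRPE core (AAAAATTT) are known upstream of genes for RNA polymerase I and III subunits and ribosome assembly factors in budding yeast. Capitals mark the RRPE core, the only one of these motifs found, and no matches overlap. The sequences are from RefSeq (ASM294v3) and read 5′ to 3′ on the strand of the gene.
rpa2, chrII:2007836-2008085, plus strand: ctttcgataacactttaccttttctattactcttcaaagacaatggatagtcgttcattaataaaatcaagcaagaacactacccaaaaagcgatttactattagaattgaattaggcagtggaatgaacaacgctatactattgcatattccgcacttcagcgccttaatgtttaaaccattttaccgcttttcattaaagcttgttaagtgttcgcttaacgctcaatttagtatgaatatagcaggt
rpa43, chrII:4001244-4001493, minus strand: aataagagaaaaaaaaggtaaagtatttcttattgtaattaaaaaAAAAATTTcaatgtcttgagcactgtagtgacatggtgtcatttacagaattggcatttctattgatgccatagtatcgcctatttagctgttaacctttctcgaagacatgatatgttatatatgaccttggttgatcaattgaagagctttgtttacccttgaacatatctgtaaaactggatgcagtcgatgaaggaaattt
rpc10, chrII:1675389-1675638, plus strand: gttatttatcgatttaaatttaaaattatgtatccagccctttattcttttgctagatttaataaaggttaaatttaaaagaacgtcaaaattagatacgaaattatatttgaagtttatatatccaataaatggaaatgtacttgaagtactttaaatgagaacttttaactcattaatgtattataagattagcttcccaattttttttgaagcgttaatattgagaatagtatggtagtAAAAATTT
The RRPE core was present in the windows of rpa43 and rpc10, where it began 205 and 8 bases before the start. It was also present in 15.5% of the 515 windows of listed genes and in 13.6% of the 5112 windows of protein-coding genes. Since this motif was chosen after the promoters had been read, its presence in them is no test. HomolD was present in 64.3% of the windows of the 126 listed ribosomal protein genes and in 2.62% of all windows, and HomolE in 28.6% and 1.21%. The PAC core was present in 6.85% of all windows. The windows of the 3 genes hold 34% (rpa2), 31.6% (rpa43) and 22.4% (rpc10) G and C.

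Total RNA of the knockout was set against that of WT to ask which mRNAs change in amount without Slr1p. All 3 mRNAs were lower in slr1- total RNA and all 3 passed the test, rpc10 by 2.26-fold, rpa2 by 1.62-fold and rpa43 by 1.46-fold. Of the 527 genes, 33.6% passed in this direction, so a fall by itself was common in the table. In either direction 281 genes passed, and 127 did so once replicate 1 of slr1- total RNA was left out. How the genes of the table were chosen is not given. Counts are shares of a library, and less of an mRNA per cell and fewer cells with it cannot be told apart. Values are normalised counts, that is counts scaled to the libraries' average size with TMM factors. The test is the edgeR quasi-likelihood test, with p-values adjusted by Benjamini-Hochberg over the 527 genes and a threshold of 0.05.

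For rpc10 the normalised counts were 225 and 281 in slr1- total RNA, against 475 and 670 in WT total RNA. The groups did not overlap, and even the higher slr1- library stood well under the lower WT library. Groups separated in this direction in 47.8% of the 527 genes. The log2 fold change was -1.18 ± 0.19 (SE, n = 2 libraries per group; edgeR adjusted p = 0.00162), which ranked 6 of 527 from the lowest. The value remained past the threshold in every alternative run for it, between -1.40 and -0.85.

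For rpa2 the normalised counts were 182 and 213 in slr1- total RNA, against 330 and 311 in WT total RNA. Both slr1- libraries were lower than both WT libraries, as in 47.8% of the 527 genes, and the replicates lay close together in each strain. The log2 fold change was -0.70 ± 0.16 (SE; edgeR adjusted p = 0.00619), rank 91 of 527 from the lowest. Its call held in every alternative run, with values from -0.88 to -0.36. The largest adjusted p among them was 0.0472, without replicate 1 of slr1- total RNA.

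For rpa43 the normalised counts were 372 and 382 in slr1- total RNA, against 472 and 627 in WT total RNA. The groups did not overlap, but the WT libraries were far apart. The log2 fold change was -0.54 ± 0.19 (SE; edgeR adjusted p = 0.0369), rank 143 of 527. This call was lost without replicate 2 of WT (-0.32), replicate 1 of slr1- (-0.52) or replicate 2 of slr1- (-0.56). It was also lost with DESeq2 (-0.47), DESeq2 size factors (-0.47) or TMM factors computed without ribosomal protein genes (-0.21). A fit on the compared groups alone, with its own factors and estimate of the spread, lost it too (-0.42). Groups without overlap in the lower direction were seen in 47.8% of the 527 genes.

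**Figure D1:**
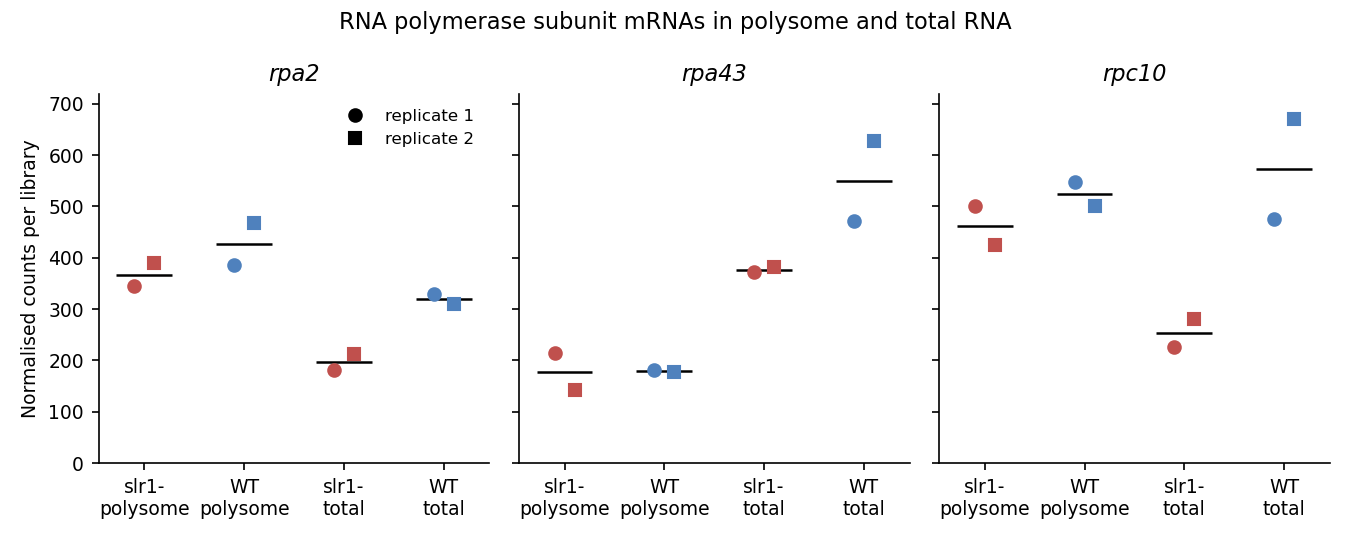
Normalised counts per library (vertical axis, from 0) of rpa2, rpa43 and rpc10 in slr1- polysome, WT polysome, slr1- total and WT total RNA. Circles are replicate 1, squares replicate 2 and lines the mean of 2 libraries. In total RNA both slr1- points lie under both WT points for each gene, as in 47.8% of the 527 genes. In polysome RNA rpa43 lies between 143 and 214 in both strains.

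The size of these falls depended on how the libraries were scaled. Over the 527 genes the median log2 change was -0.19, and it was 0.15 with TMM factors computed without ribosomal protein genes and -0.37 with library sizes alone. Relative to the median of the same scale, rpc10 lay at -0.99, rpa2 at -0.51 and rpa43 at -0.35. A change of scale moves all genes by nearly the same amount. The order of the 3 was therefore bound to be the same on the 5 scales, and it does not test the falls. The 126 listed ribosomal protein genes had a median of 0.38 and the other 401 genes one of -0.36. Ratios of counts within a library need no scaling factor, but they take 1 gene, here rpb6, as the reference. At a log2 change of -0.22, rpb6 lay close to the median, so these ratios largely repeat the values relative to the median. The count of rpc10 was 0.477 and 0.519 times that of rpb6 in slr1- total RNA, against 0.818 and 1.12 times in WT total RNA. The ratio of rpa2 to rpb6 was 0.385 and 0.394 in slr1- total RNA, against 0.568 and 0.517 in WT total RNA. Both ratios were lower in each slr1- library than in each WT library. In normalised counts such a separation was common, in 47.8% of the 527 genes, and its share for ratios to rpb6 was not computed. The ratio of rpa43 to rpb6 was 0.788 and 0.706 in slr1- total RNA, against 0.812 and 1.04 in WT total RNA, and the higher slr1- library was close to the lower WT library.

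**Figure D2:**
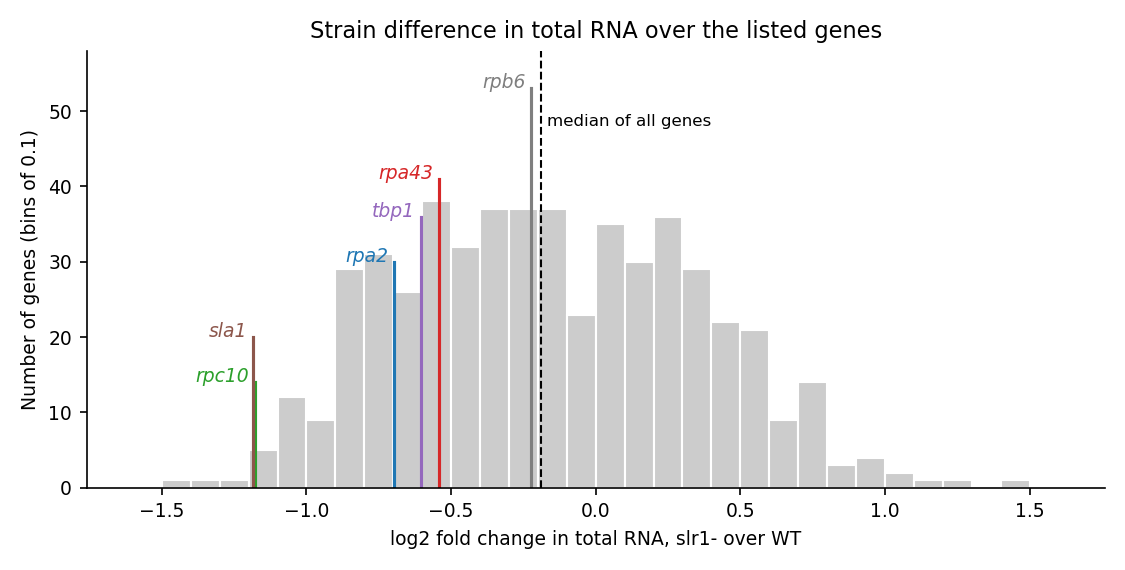
Number of the 527 genes (vertical axis, bins of 0.1) by log2 fold change in total RNA, slr1- over WT (horizontal axis). Coloured lines mark rpa2, rpa43, rpc10, rpb6, tbp1 and sla1, their heights only separate the names, and the dashed line is the median of all genes at -0.19. The lines of rpc10 and sla1 stand in the lower tail, at -1.18, and rpb6 stands beside the median.

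A list of 50 symbols of RNA polymerase subunits and of the factors that work with polymerases I and III was drawn up, of which 49 are in the reference and 6 in the table. Besides the 3 genes these were rpb6, tbp1 and sla1. No gene of the 10 listed specific to RNA polymerase III and none of the 7 specific to RNA polymerase II was among the 527, and these were not analysed here. Of the 6 genes 5 fell in total RNA, none rose and 1 did not pass, with a median log2 change of -0.65. This count includes the 3 genes described above. Of the other 3 genes 2 fell, with a median of -0.605. The 3 genes and the list were chosen with earlier results of these data known. Over all 527 genes 33.6% fell, with a median of -0.19. That share includes the 126 listed ribosomal protein genes, whose median was 0.38. The 401 genes outside them had a median of -0.36, and the share of these 401 that fell was not counted. The gene tbp1 encodes the TATA-binding protein, which takes part in initiation by all 3 polymerases. It fell to 166 and 185 normalised counts in slr1- total RNA, against 266 and 267 in WT total RNA (log2 -0.60 ± 0.15 SE; edgeR adjusted p = 0.00872). The tbp1 call was lost with TMM factors computed without ribosomal protein genes (-0.27). It was also lost in a fit on the compared groups alone (-0.48). The gene sla1 encodes the La protein, which binds the ends of new RNA polymerase III transcripts. It fell to 133 and 188 normalised counts in slr1- total RNA, against 308 and 419 in WT total RNA (log2 -1.18 ± 0.25; adjusted p = 0.00408), and the call was lost without replicate 1 of slr1- total RNA (-0.95). The gene rpb6 encodes a subunit shared by all 3 polymerases, like rpc10. It had 472 and 541 normalised counts in slr1- total RNA, against 581 and 600 in WT total RNA, and did not pass (log2 -0.22 ± 0.13; adjusted p = 0.167). Its value turned to 0.11 with TMM factors computed without ribosomal protein genes and passed with library sizes alone (-0.40). The shared subunit genes rpc10 and rpb6 thus had values of -1.18 and -0.22, a difference between genes that was not tested.

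The second comparison asks whether the mRNAs on polysomes differ between the strains. None of the 3 mRNAs passed. The share of the 527 genes that passed was 0%, with 0 genes in edgeR, 100 at an unadjusted p under 0.05 and 27 in DESeq2. Without replicate 1 of slr1- polysome RNA 2 genes passed in edgeR. For rpc10 the normalised counts were 500.3 and 424 in slr1- polysome RNA, against 548 and 500.3 in WT polysome RNA. For rpa2 they were 346 and 389 in slr1- polysome RNA, against 387 and 468 in WT polysome RNA. The strains touch or overlap for both genes. For rpa43 they were 214 and 143 in slr1- polysome RNA, against 181 and 178 in WT polysome RNA, and the WT libraries lay between those of slr1-. The log2 fold changes were -0.18 ± 0.19 for rpc10 (SE; edgeR adjusted p = 0.616), -0.22 ± 0.16 for rpa2 (adjusted p = 0.474) and -0.01 ± 0.22 for rpa43 (adjusted p = 0.977). The rpa43 value changed sign without replicate 2 of slr1- polysome RNA (0.25). The values of rpb6, tbp1 and sla1 were -0.02 ± 0.13, 0.04 ± 0.15 and -0.28 ± 0.23, and none passed.

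**Figure D3:**
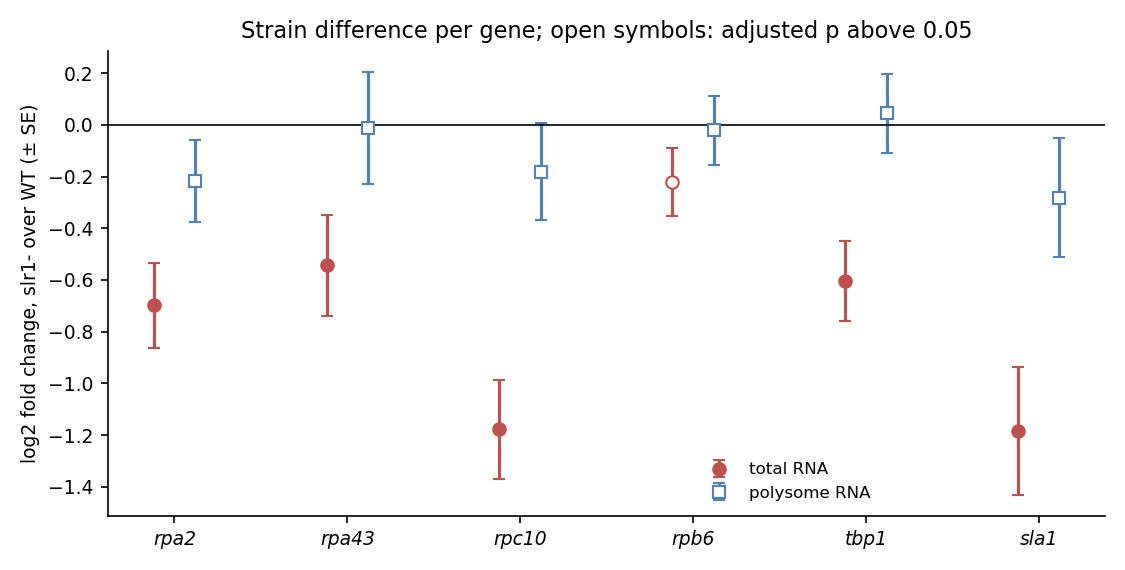
The log2 fold change of slr1- over WT (vertical axis) with its SE for rpa2, rpa43, rpc10, rpb6, tbp1 and sla1, in total RNA (circles) and polysome RNA (squares). Filled symbols passed at an adjusted p under 0.05 and open symbols did not. In total RNA 5 of the 6 genes are filled, from -1.18 to -0.54, where 33.6% of the 527 genes passed in this direction, and in polysome RNA the 6 open symbols lie between -0.28 and 0.04.

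Whether the strain difference itself differs between polysome and total RNA was tested as an interaction. For rpc10 the difference of the log2 changes was 1.00 ± 0.27 (SE; edgeR unadjusted p = 0.00358, adjusted p = 0.0645), rank 9 of 527 from the highest, and it did not pass. Past the threshold were 0.38% of the 527 genes, 1 in each direction. They were aha1, which encodes an Hsp90 co-chaperone (1.17), and the mitochondrial gene SPMIT.10 (-1.01), both named after their values were seen. Leaving out 1 library gave 0 to 77 genes, with 77 without replicate 2 of slr1- total RNA and 32 without replicate 1 of WT total RNA. The call for rpc10 depended on the setting. It passed with DESeq2 (0.92; adjusted p = 0.0414), library sizes alone (1.09), and a block that joins the polysome and total libraries of a strain and number (0.98). It also passed without replicate 2 of slr1- total RNA (1.16) or replicate 1 of WT total RNA (1.22). Over the 14 alternatives run the adjusted p of rpc10 ranged between 0.0208 and 0.238, and the value between 0.73 and 1.22. For rpa2 the interaction was 0.48 ± 0.23 (adjusted p = 0.209) and for rpa43 0.53 ± 0.29 (adjusted p = 0.272). The other listed genes had 0.90 ± 0.34 (sla1), 0.65 ± 0.22 (tbp1) and 0.20 ± 0.19 (rpb6), and none passed, though tbp1 did without replicate 2 of slr1- total RNA (0.73). The median over all 527 genes was 0.15, and 329 of them had positive values. In the authors' deposited table the ratios of polysome to total counts, slr1- over WT, were 1.68 and 2.06 for rpc10. They were 1.41 and 1.24 for rpa2 and 1.30 and 1.34 for rpa43. These ratios are of counts not scaled for library size, so equal strains need not give a value of 1. The authors' deposited table gives a p of 0.0497 for rpc10 in the translation test, with a false discovery rate of 0.830. For rpa2 and rpa43 the same translation test has p of 0.801 and 0.237, with false discovery rates of 0.980 and 0.888.

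The libraries of 1 strain also show how each mRNA is spread between polysomes and the total pool, relative to the other listed genes. The mRNA of rpa43 was lower in polysome than in total RNA in both strains, while those of rpa2 and rpc10 were higher in polysome RNA in slr1- cells and did not pass in WT cells. In slr1- cells rpa43 had 214 and 143 normalised counts in polysome RNA, against 372 and 382 in total RNA. In WT cells rpa43 had 181 and 178 in polysome RNA, against 472 and 627 in total RNA. In either strain the polysome libraries lay far under the total RNA libraries. How many of the 527 genes separate in this way was not counted. In either direction 64.7% passed in slr1- cells and 49.7% in WT cells, so such a separation is unlikely to be rare. Polysome over total RNA gave a log2 fold change of -1.08 ± 0.21 in slr1- (SE; edgeR adjusted p = 0.000903) and -1.61 ± 0.21 in WT (adjusted p = 0.000117). Of the 527 genes, 30.7% passed in this direction in slr1- cells and 28.8% in WT cells. The rpa43 value ranked 55 from the lowest in slr1- and 27 in WT. The call held in the 11 alternatives run for each strain, with values from -1.51 to -0.67 in slr1- and from -1.80 to -1.30 in WT.

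Short coding regions hold fewer ribosomes, and the coding length of rpa43 is 522 nt. Among the 215 listed genes with coding lengths from 261 to 783 nt the median log2 of polysome over total RNA was -0.215 in slr1- cells and -0.16 in WT cells, and 22 genes in slr1- and 8 in WT were lower than rpa43. Many of these encode ribosomal proteins, whose medians over the table were -0.52 in slr1- and -0.37 in WT. Outside the 126 listed ribosomal protein genes, 111 genes had this length. Their medians were 0.22 in slr1- and 0.01 in WT, and 7 and 2 genes were lower than rpa43. Ribosomal protein genes were left out by gene name. The lowest of the 111 in each strain, at -2.32 and -2.11, is a ubiquitin-ribosomal protein fusion gene that this did not leave out. The coding region of rpc10, at 192 nt, is shorter still. Among the 41 listed genes of 96 to 288 nt the medians were -0.52 in slr1- and -0.71 in WT, and 39 and 37 of them were lower than rpc10. Of these, 24 were outside the 126 listed ribosomal protein genes. Their medians were -0.10 in slr1- and -0.39 in WT, and 22 and 20 were lower than rpc10. The comparison within a length class is a description across genes, which are not replicates. Whether coding length bears on the values of rpa43 or rpc10 was not tested.

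In slr1- cells rpa2 had 346 and 389 normalised counts in polysome RNA, against 182 and 213 in total RNA (log2 0.90 ± 0.16 SE; edgeR adjusted p = 0.000651). In slr1- cells rpc10 had 500.3 and 424 in polysome RNA, against 225 and 281 in total RNA (log2 0.87 ± 0.19; adjusted p = 0.00231). For both genes the polysome libraries lay clear above the total RNA libraries. The share of genes that separate in this way was not counted. In either direction 64.7% of the 527 genes passed in slr1- cells, so such a separation is unlikely to be rare. Of the 527 genes 34% passed in this direction in slr1- cells, and both calls held in the 11 alternatives run. In WT cells rpa2 had 387 and 468 in polysome RNA, against 330 and 311 in total RNA. A log2 fold change of 0.42 ± 0.16 just missed the threshold (edgeR adjusted p = 0.0507). It passed with DESeq2 size factors, library sizes alone, a fit on the compared groups alone and a block by strain and number. In WT cells rpc10 had 548 and 500.3 in polysome RNA, against 475 and 670 in total RNA, and the total RNA libraries enclosed those of polysome RNA (log2 -0.13 ± 0.19; adjusted p = 0.605). In the higher direction 20.9% of the 527 genes passed in WT cells. Without replicate 1 of WT polysome RNA, 163 genes passed in either direction in WT cells, against 262 with all libraries. The gene sla1 was higher in polysome than in total RNA in slr1- (1.84 ± 0.24) and in WT cells (0.93 ± 0.23), where the call was lost without replicate 1 of WT total RNA (0.73). The gene tbp1 was higher in slr1- cells (0.69 ± 0.15). The value of rpb6 in slr1- cells was 0.05 ± 0.13 and changed sign with the scale, at -0.33 with TMM factors computed without ribosomal protein genes and 0.45 with library sizes alone.

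**Figure D4:**
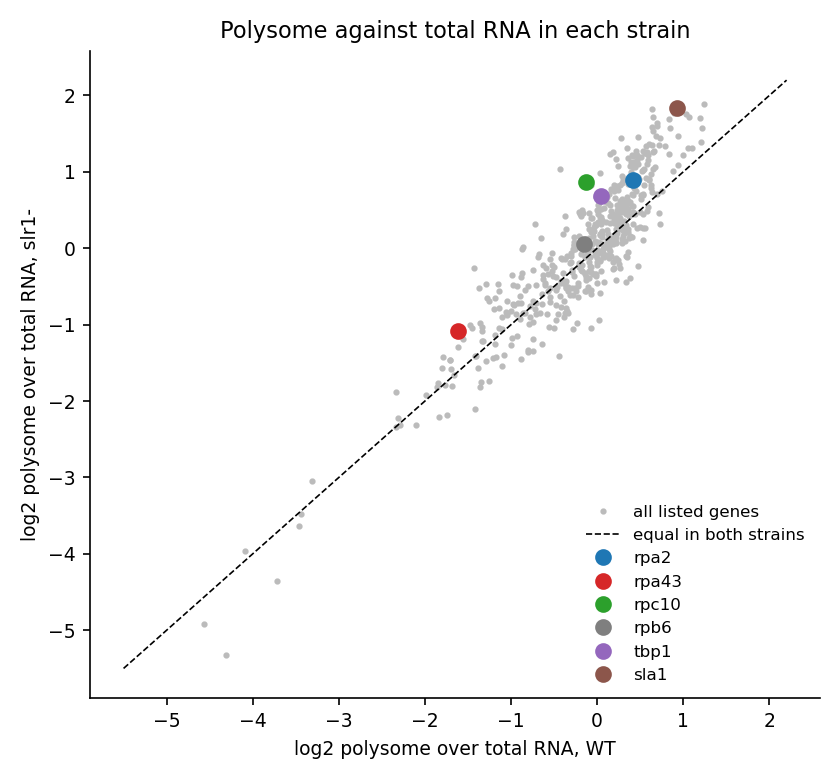
The log2 fold change of polysome over total RNA in slr1- cells (vertical axis) against that in WT cells (horizontal axis) for the 527 genes, with 6 genes coloured and the dashed line at equal values. The point of rpa43 stands low in both strains, at -1.08 and -1.61. The points of rpc10 and rpa2 stand above the dashed line, at 0.87 and 0.90 in slr1- cells.

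Levels of different genes are compared per kilobase of transcript, as normalised counts per kb averaged over 2 libraries. In slr1- polysome RNA the order was rpc10 at 930 ± 108, rpa43 at 295 ± 82.5 and rpa2 at 94.9 ± 7.86 (mean ± SD). In WT polysome RNA it was rpc10 at 1054 ± 67.6, rpa43 at 297 ± 3.23 and rpa2 at 110.4 ± 14.8. In slr1- total RNA it was rpa43 at 623 ± 12.02, rpc10 at 509 ± 79.3 and rpa2 at 51.1 ± 5.73. In WT total RNA it was rpc10 at 1152 ± 277, rpa43 at 909 ± 181 and rpa2 at 82.8 ± 3.58. The ranges of rpc10 and rpa43 overlap in WT total RNA, and they do not overlap in slr1- total RNA. The longest mRNA, rpa2, was the lowest of the 3 per kb in every group. Of 515 genes with a length, 1.94% were lower in total RNA of either strain. No gene of the table had a mean under 161 counts over the libraries. Short mRNAs as low per kb as rpa2 would fall under this value and are absent from the table. The low rank of rpa2 therefore depends in part on its length and does not show that its mRNA is rare.

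Across the 4 groups the levels of rpa2 ran in the order slr1- total, WT total, slr1- polysome and WT polysome RNA, from 198 ± 22.2 to 427 ± 57.2 normalised counts (mean ± SD). The libraries of slr1- polysome and WT polysome RNA overlap. For rpc10 the order was slr1- total RNA at 253 ± 39.4, slr1- polysome RNA at 462 ± 53.9, WT polysome RNA at 524 ± 33.6 and WT total RNA at 572 ± 138, and the last 3 do not differ beyond their spread. For rpa43 the order was slr1- polysome RNA at 178 ± 49.9, WT polysome RNA at 179.7 ± 1.95, slr1- total RNA at 377 ± 7.27 and WT total RNA at 549.6 ± 109.5, and the first 2 do not differ beyond their spread. The SD of log2 normalised counts over the 8 libraries was 0.458 for rpa2, 0.773 for rpa43 and 0.519 for rpc10, against 0.107 for rpb6, which varied less than all but 3.04% of the genes.

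Genes with the most similar course over the 8 libraries were taken by the root mean square difference of log2 normalised counts after each gene's mean was removed. For rpa2 these were gus1, the glutamate-tRNA ligase gene (0.0917), the alanine-tRNA ligase gene ala1 (0.0949) and ade3 of purine synthesis (0.0972), against a median of 0.453 over the table. For rpa43 they were hmt2, a sulfide-quinone oxidoreductase gene (0.155), the acetylornithine aminotransferase gene arg1 (0.207) and the lysophospholipase gene plb1 (0.208), against a median of 0.78. For rpc10 they were rlp7, a ribosome biogenesis gene (0.113), erg28 (0.149) and the decapping complex gene lsm1 (0.162), against a median of 0.514. The nearest genes were picked as the smallest differences, so any other gene lies further off by construction. The difference between rpa2 and rpc10 was 0.296, under the median of either gene. That between rpa2 and rpa43 was 1.03 and that between rpa43 and rpc10 0.904, over these medians. From rpa43, the mRNA of rpa2 ranked 445 among the other genes by likeness. From rpc10 it ranked 50, and from rpa2 the mRNA of rpc10 ranked 147.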

How the data were processed

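Counts of 527 genes in 8 libraries came from the deposited table, where the count columns hold whole numbers. Bowtie and RSEM made them from reads (50 bp, single-end per the labels), per the submitters' processing notes. The sources used here give no versions, options, genome build or strand setting. Totals over the listed genes ran between 550490 and 1110838 per library and are not library depths. Other columns deposited by the authors hold log2 fold changes, p-values, ratios and a direction score, and none entered a test. Of 527 identifiers 515 matched the reference (ASM294v3). Symbols were matched, not synonyms, since rpp201 and rpp203 also carry the name rpa2.

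The counts entered edgeR 4.0.16 under R 4.3.3, scaled by TMM. All 8 libraries shared 1 fit with a mean for each group, which left 4 residual degrees of freedom, and the biological coefficient of variation was 0.113. Quasi-likelihood tests were two-sided and adjusted by Benjamini-Hochberg over the 527 genes. The SE was taken as the size of the log2 fold change over the root of F. The code was tested on simulated data. Alternatives were DESeq2 1.42.0, other scaling factors, fits on the compared groups, a minimum mean of 500 counts, replicate blocks and leaving out each library. Genes named are the 3 genes, all genes of the polymerase and factor lists found in the table, and the 3 nearest profiles of each of the 3 genes. Outside this rule, aha1 and SPMIT.10 were named after their values were seen. Members and lists were chosen with earlier results of these data known, and the RRPE motif after the promoters had been read. The labels give no batch.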

Additional observations from a re-analysis of the deposited data

How the results depend on the processing

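With an n of 2 per group, 1 library can decide a call, and in fits without 1 library the lone sample is assumed to vary like the others. In total RNA, rpa43 lost its call with DESeq2 (-0.47), DESeq2 size factors (-0.47) and TMM factors computed without ribosomal protein genes (-0.21). It also lost the call in a fit on the compared groups alone (-0.42). Leaving out 1 library gave -0.73 to -0.32 for rpa43, -0.82 to -0.59 for rpa2 and -1.40 to -0.91 for rpc10. In polysome RNA the ranges were -0.36 to 0.25 for rpa43, -0.35 to -0.09 for rpa2 and -0.33 to -0.07 for rpc10, and rpa43 turned to 0.0480 with factors computed without ribosomal protein genes. In the interaction they were 0.10 to 0.75 for rpa43, 0.35 to 0.60 for rpa2 and 0.73 to 1.22 for rpc10, and rpc10 passed with DESeq2 (0.92), library sizes alone (1.09) and a replicate block per strain (0.98). Polysome against total RNA ranged from -1.51 to -0.84 (rpa43), 0.78 to 1.01 (rpa2) and 0.64 to 1.04 (rpc10) in slr1-, and from -1.80 to -1.39 (rpa43), 0.29 to 0.55 (rpa2) and -0.35 to 0.14 (rpc10) in WT. In WT, rpa2 passed with DESeq2 size factors (0.42), library sizes alone (0.73), the compared groups (0.44) and a replicate block per strain (0.41), and rpc10 turned to 0.19 with library sizes alone.

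The number of genes past the threshold ran from 127 to 288 in total RNA without 1 library, and it was lowest without replicate 1 of slr1-. It ran from 0 to 2 in polysome RNA, from 0 to 77 in the interaction, from 277 to 339 for polysome against total RNA in slr1- and from 163 to 228 in WT, where 163 is the value without replicate 1 of WT polysome RNA. DESeq2 gave 27 genes in polysome RNA and 37 in the interaction, library sizes alone 31 and factors computed without ribosomal protein genes 0 in the interaction. With genes of at least 500 counts, 312 of the 527, the counts were 134 in total RNA, 13 in the interaction, and 197 and 160 for polysome against total RNA in slr1- and WT. The 3 genes fall under that minimum and have no value there.

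The labels do not say that a replicate number marks a shared culture. Replicate differences of polysome and total RNA correlated at 0.07 in slr1- and 0.29 in WT, and over the 6 pairs of groups from -0.29 to 0.29, so the libraries were treated as sharing only a number, and whether those of WT are paired is not settled. The replicate block gave 9 genes in the interaction, against 2 without it, and 46 with a block per strain, and the block per strain carried past the threshold rpc10 in the interaction (edgeR adjusted p = 0.0414, against 0.0645 without it) and rpa2 in WT (0.0451, against 0.0507). No other call of the 3 genes changed under these blocks. With crossed numbers, chosen after seeing the data because the total RNA groups correlated at -0.14, 256 genes passed in total RNA. For the other listed genes, values that changed sign were those of rpb6 in total RNA (0.11), polysome RNA (0.0406) and the interaction (-0.0705) with factors computed without ribosomal protein genes. In slr1- the polysome against total value of rpb6 was -0.0230 with DESeq2 and also with its size factors in edgeR, and -0.33 without ribosomal protein genes, and in WT it was 0.16 with library sizes alone. The polysome value of tbp1 was -0.0493 with library sizes alone, and its WT polysome against total value -0.0651 without ribosomal protein genes. Without 1 library, rpb6 ranged from -0.0467 to 0.15 in slr1- polysome against total RNA and from -0.0688 to 0.0146 in polysome RNA. On the same terms tbp1 ranged from -0.0341 to 0.11 in polysome RNA and from -0.0256 to 0.12 in WT polysome against total RNA, and sla1 from -0.66 to 0.00015 in polysome RNA. The causes of these changes were not tested.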
